A study of Mus musculus with 24 samples.

Results

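The comparison described here is between MC38 cells given TNF together with RG6146 and MC38 cells given RG6146 alone, and it measures the part of the response to TNF that was still seen in the presence of a BET inhibitor. Its members are the 3 libraries labelled MC38 TNF+RG6146, called the combination below, and the 3 libraries labelled MC38 RG6146, which makes 6 of the 24 libraries of the series. All 13272 genes that passed a filter on low counts in MC38 were compared. MC38 is a mouse tumour line labelled as colon adenocarcinoma, and the other line of the series is E0771, a mouse breast adenocarcinoma line. RG6146 was given at 2.5 µM and recombinant murine TNF at 10 ng/mL, each for 3 h, and the libraries called DMSO (solvent) and TNF alone serve as reference values. All 6 libraries of the comparison therefore carry RG6146, and they differ in TNF. The growth protocol names MC38-Ova cells where the sample labels name MC38, and the labels were followed. Whether replicates came from separate cultures is not stated in the labels. The p-values therefore reflect the scatter among the libraries of each fit, and that scatter may be technical.

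TNF binds its receptor at the cell surface and activates the IkB kinases, which mark the IkB proteins for destruction and so release NF-kB dimers into the nucleus. NF-kB then switches on its own inhibitors, chemokines, adhesion molecules and survival genes, while the same receptor can start cell death when the survival arm fails. BET proteins bind acetylated histones and bring the elongation factor P-TEFb to genes that are being switched on, and RG6146 occupies the bromodomains through which they bind.

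Of the 13272 genes, 39 passed an adjusted p of 0.05 in edgeR's quasi-likelihood test (called below), which is 0.294% of those tested. An unadjusted p under 0.05 was seen for 672 genes, these included. A threshold of 0.05 passes about this share of genes where none changes. Leaving out 1 of the 6 libraries gave between 399 such genes (without replicate 2 of the combination) and 878 (without replicate 1 of the combination). TNF raised 37 genes (0.279%) and lowered 2 (0.0151%) in the presence of RG6146. These shares of all tested genes are to be set beside the counts given for each gene list below. Where a count is given for TNF alone, the share to set beside it is the 1.02% of all tested genes called higher for TNF against DMSO. The 37 rises ran from 0.70 to 6.19 on the log2 scale with a median of 1.82, and 29 of them were at least 1. They were led by the chemokines Cxcl1 and Cxcl10, the NF-kB inhibitors Nfkbia and Nfkbie, the adhesion molecule Vcam1, and the regulators Zfp36 and Junb. In all 39 called genes the 3 libraries of one group lay apart from the 3 of the other, which was also true of 1840 of the tested genes, or 13.9%. The median log2 fold change over all tested genes was -0.00147. Values below are log2 fold changes ± SE of 3 libraries against 3, levels are CPM, which are counts scaled to a common library total with TMM factors, and adjusted p-values are those of edgeR's quasi-likelihood test.

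Promoter sequences are shown first because several of the genes that rose most are textbook NF-kB targets. RefSeq promoter windows on GRCm38.p6, which run from 250 bases before a gene's start to 50 after it, were found for 27 of the 37 genes that rose. The general NF-kB consensus, a motif of 10 bases that begins with a run of G and ends with a run of C, was searched on both strands. It matched the window of 10 of the 27 genes (37%), and of 2581 of the 27025 genes in the RefSeq table (9.55%). That table includes genes not tested here. A match is a description of the letters and not of binding. The stretches below are written 5′ to 3′ on the strand of the gene, with the matching bases in capitals; in Cxcl1, and at the match of Cxcl10 nearest to the start, the capitals cover overlapping matches. Nfkbia lies at chr12:55492648-55492696, minus strand, Nfkbie at chr17:45555574-45555623, plus strand, Cxcl1 at chr5:90891154-90891204, plus strand, and Cxcl10 at chr5:92348963-92349068, minus strand.
Nfkbia: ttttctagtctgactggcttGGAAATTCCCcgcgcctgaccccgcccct
Nfkbie: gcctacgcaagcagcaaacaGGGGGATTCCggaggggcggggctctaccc
Cxcl1: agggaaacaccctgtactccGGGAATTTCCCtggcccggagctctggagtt
Cxcl10: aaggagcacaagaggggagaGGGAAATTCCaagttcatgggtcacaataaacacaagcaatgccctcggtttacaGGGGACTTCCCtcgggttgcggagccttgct
The other genes with a match were Bcl3, Csf1, Hivep1, Ier3, Irf1 and Spib. No match was found for Vcam1, Zfp36 or Relb, which also rose.

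The 6 libraries held between 5392808 and 8538298 counts. Replicate 2 of the combination stands apart in its leukocyte transcripts: the 46 leukocyte markers of 6 lists summed to 2421 CPM in it and to between 7.05 and 41.6 CPM in the other 11 MC38 libraries. Of these markers, 38 had a count in it and 32 were higher there than in any other MC38 library, and neutrophil markers made up 2075 CPM of the sum. Of the 5 neutrophil markers, S100a8, S100a9 and Ngp had 9185, 4450 and 2278 counts in it, Retnlg had 12 and Csf3r had 0. The T and NK cell markers summed to 119 CPM there, those shared by all leukocytes to 138 CPM, and the complement genes C1qa, C1qb and C1qc of macrophages were at 0 in all 12 MC38 libraries. Only 12 of the 46 markers passed the filter, and 0 were called in edgeR's test of the combination against RG6146. The epithelial genes that a colon adenocarcinoma would carry were nearly absent: 11 markers of epithelium reached a sum of 8.08 CPM in this library and of at most 0.771 CPM elsewhere in MC38, against 83.8 to 113 CPM in E0771, and none passed the filter. Markers of fibroblasts, 8 in the list, summed to 305.6 CPM in this library and to between 374 and 714.5 CPM elsewhere in MC38. In E0771 they summed to 74.6 to 135 CPM. Col3a1 and Dcn were the most abundant in MC38, followed by Pdgfra and Pdgfrb. Col1a1 and Col1a2 had at most 2 counts in any MC38 library, Lum had at most 7, and Postn had 0. The epithelial markers thus go against the labelled tissue, while the fibroblast markers are mixed, and the cells are called by their label only. Without this library, where 0.193% of 13492 tested genes were called, 25 of the 39 calls were made again and all 39 genes kept their sign, and each of the 14 calls that it ended is given below with its adjusted p, or with the range of 5 such values, without the library. Among the libraries used for reference, replicate 1 of TNF alone and replicates 2 and 3 of DMSO had more genes over 1 log2 unit from the mean of their group (723, 571 and 408) than this library had (112), and the interaction and the shares of the TNF level rest on them. In such bulk samples fewer cells of a type and less RNA per cell cannot be told apart.

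**Figure D1:**
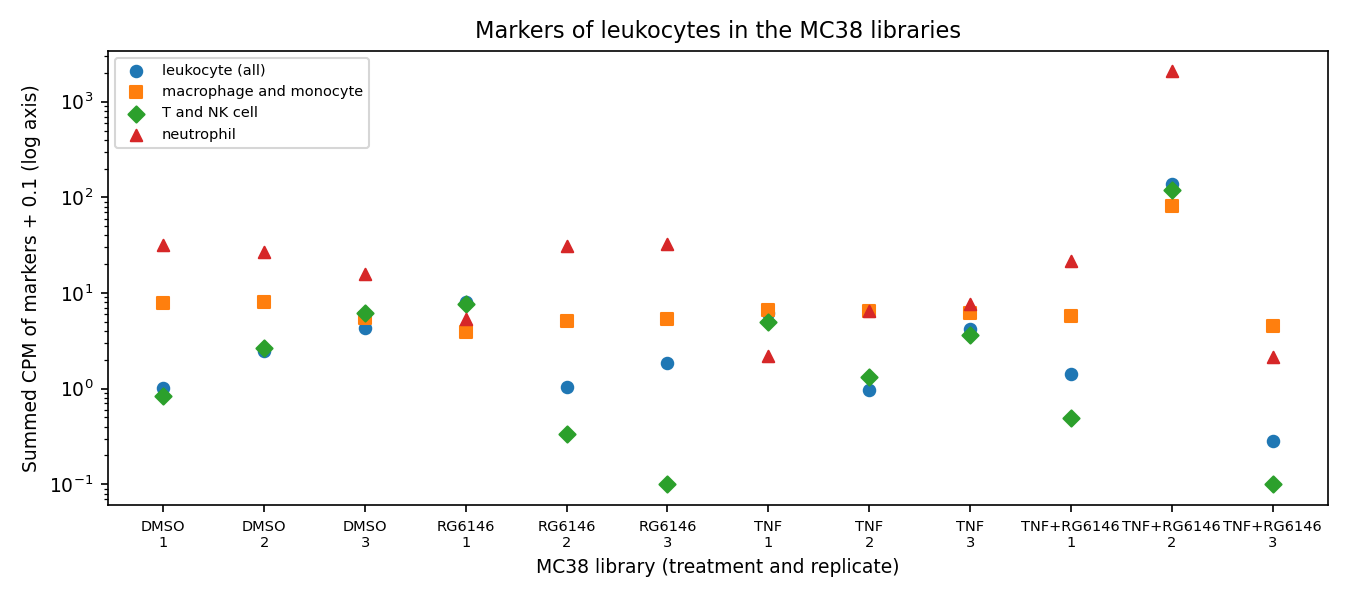
Summed CPM of 4 leukocyte marker lists, with 0.1 added on a log axis, in each of the 12 MC38 libraries. Replicate 2 of the combination lies above every other library in all 4 lists, with neutrophil markers at 2075 CPM.

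Among the inhibitors that NF-kB induces against itself, Nfkbia, Nfkbie and Bcl3 rose. Nfkbia encodes IkB-alpha, which holds NF-kB in the cytoplasm, and it stood at 407, 423 and 431 CPM under RG6146 and at 3010, 2703 and 3349 CPM in the combination. The groups lay far apart, with the lowest combination library above the highest RG6146 library. Its log2 fold change was 2.85 ± 0.12 (adjusted p = 2.32e-08), and the combination mean was 104% of the mean under TNF alone. Nfkbie, which encodes IkB-epsilon, stood at 4.64, 5.79 and 5.46 CPM under RG6146 and at 28.5, 23.5 and 25.5 CPM in the combination. It rose by 2.28 ± 0.17 (adjusted p = 6.94e-06) and reached 65.4% of the mean under TNF alone. Bcl3 encodes an IkB-like protein that works in the nucleus with the p50 and p52 subunits, and it rose from 1.29, 0.844 and 1.43 CPM to 3.52, 4.85 and 5.17 CPM. This was a rise of 1.91 ± 0.34 (adjusted p = 0.0296, and 0.145 without replicate 2 of the combination), and its combination mean was 20.1% of that under TNF alone, the lowest such share among the 37 genes.

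Of the 19 genes in the list of NF-kB inhibitors and feedback regulators, 18 were tested, 3 rose and 0 fell, with a median log2 fold change of 0.187. TNF alone raised 6 of the 18. Tnfaip3, which encodes the deubiquitinase A20, had 2, 1 and 0 counts under RG6146 and 14, 13 and 5 counts in the combination. The ratio of its depth-scaled counts was 12.6 with a counting interval of 3.93 to 64.2, and it was not called (adjusted p = 0.284). Under TNF alone it was called, with a log2 fold change of 5.03 (adjusted p = 0.000857), and its combination mean was 16% of the TNF mean. Tnip1, a partner of A20 named here after its values were seen, had a log2 fold change of 0.87 ± 0.18 (adjusted p = 0.0801) and was not called either. In the list as a whole 14 of the 18 fold changes were positive.

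Among the subunits and kinases of NF-kB, 1 of 16 tested genes rose and 0 fell, with a median of 0.168 (0.0607 without replicate 2 of the combination). Relb, the subunit of the non-canonical dimer with p52, rose from 26.8, 22.9 and 27.7 CPM to 66.0, 58.1 and 73.7 CPM. That is a rise of 1.35 ± 0.16 (adjusted p = 0.000687), and its combination mean was 96.6% of the TNF mean. Nfkb1, Nfkb2 and Rela, which encode p105, p100 and p65, had log2 fold changes of 0.74, 0.44 and 0.52 and were not called (adjusted p = 0.864, 0.783 and 0.238). Each of these 3 genes had higher values in all 3 combination libraries than in any RG6146 library, as did 6.31% of all tested genes.

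**Figure D2:**
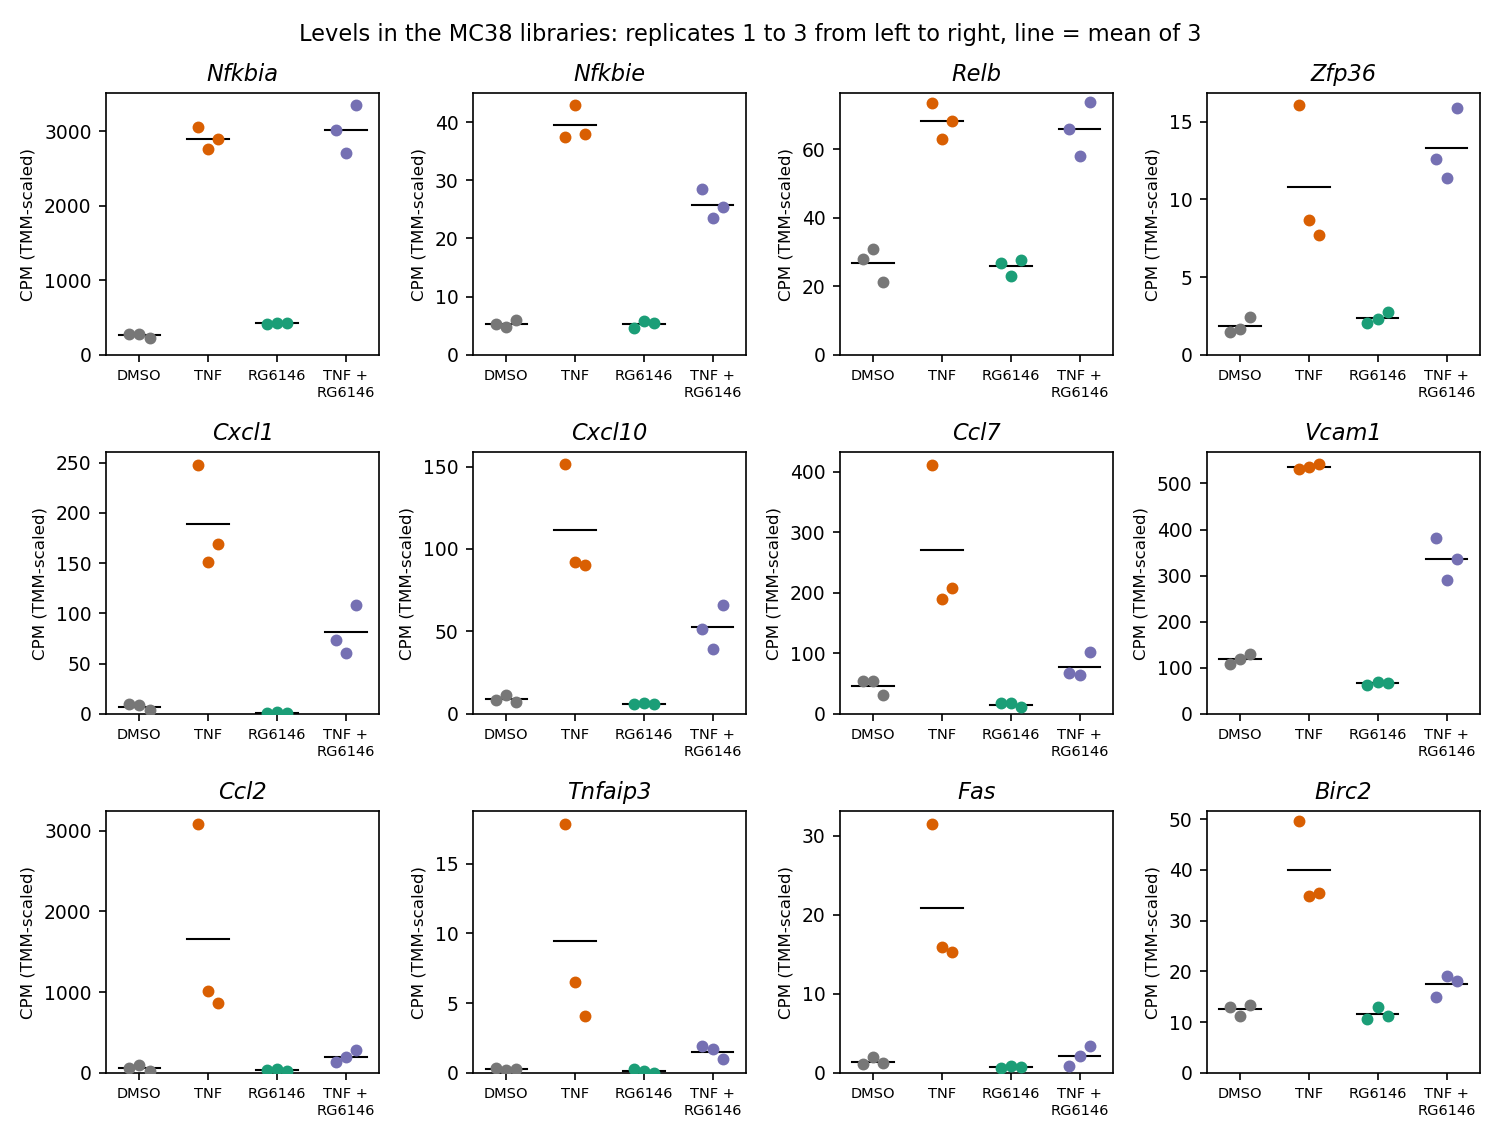
Levels in CPM, on linear axes from 0, of 12 genes in the 12 MC38 libraries, with points for replicates 1 to 3 and a line at the mean of 3. For Nfkbia, Relb and Zfp36 the combination mean lies at 104%, 96.6% and 123% of the mean under TNF alone, and for Ccl2, Tnfaip3 and Fas at 12.2%, 16% and 10.1%.

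Of 7 chemokines that passed the filter in a list of 17, 4 rose, beside 0.279% of all tested genes. The median of the 7 was 2.37. Cxcl1 (chr5:90891241-90893115), an attractant of neutrophils, had the highest fold change of all called genes. It stood at 1.16, 1.45 and 0.65 CPM under RG6146 and at 73.3, 60.9 and 109 CPM in the combination. Its log2 fold change was 6.19 ± 0.41 (adjusted p = 1.82e-06), and it was 6.36 without replicate 2 of the combination, the library rich in neutrophil markers. The combination mean was 42.8% of the mean under TNF alone, where the gene stood at 248, 151 and 169 CPM.

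Cxcl10, an attractant of activated T cells, rose from 6.06, 6.51 and 6.11 CPM to 51.7, 39.6 and 65.8 CPM, by 3.06 ± 0.26 (adjusted p = 2.52e-05). Ccl7, an attractant of monocytes, rose from 17.1, 17.1 and 10.8 CPM to 67.2, 64.2 and 102 CPM, by 2.37 ± 0.33 (adjusted p = 0.0034). Ccl5 stood at 52.3, 45.4 and 65.2 CPM and at 140, 104 and 105 CPM. It rose by 1.10 ± 0.20 (adjusted p = 0.0369, and 0.0824 without replicate 2 of the combination). The combination means of these 3 chemokines were 47.1%, 28.9% and 70.1% of the TNF means, and for none of the 4 that rose did the groups overlap.

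Ccl2, the neighbour of Ccl7 on chromosome 11 and the main monocyte attractant, stood at 37.6, 52.0 and 24.8 CPM under RG6146 and at 131, 194 and 279 CPM in the combination. The groups lay apart, but the fold change of 2.40 ± 0.56 was not called (adjusted p = 0.16). TNF alone raised Ccl2 by 4.82 (adjusted p = 0.000586), with 3084, 1014 and 867 CPM in its 3 libraries, so the combination mean was 12.2% of the TNF mean. Cxcl2, a neutrophil attractant near Cxcl1, did not pass the filter: it had 0 counts in the 3 RG6146 libraries and 0, 10 and 6 in the combination. Against a floor of 3 counts over the RG6146 libraries, that is at least 6.29-fold higher. Of the 16 counts, 10 came from replicate 2, the library with leukocyte transcripts.

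Cytokines and adhesion molecules had 1 rise each. Csf1, the growth factor of macrophages, rose from 52.7, 56.1 and 41.8 CPM to 162, 151 and 220 CPM, by 1.82 ± 0.31 (adjusted p = 0.0178). It was 1 of 12 tested cytokines and growth factors, whose median was 0.247 (0.412 without replicate 2 of the combination). Vcam1, to which leukocytes bind through VLA-4, rose from 63.5, 69.2 and 67.8 CPM to 381, 291 and 335 CPM, by 2.33 ± 0.13 (adjusted p = 2.22e-07). It was 1 of 8 tested adhesion molecules, whose median was 0.748, and its combination mean was 62.6% of the TNF mean. The 8 include Icam1 and Sele, with means of 0.0866 and 0.164 CPM under RG6146 and fold changes of 3.13 and 2.79. Genes so low may have passed the filter through the libraries given TNF. In both Csf1 and Vcam1 the lowest combination library was more than 2 times as high as the highest RG6146 library.

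Lif, a cytokine of the interleukin 6 family, had 1, 2 and 0 counts under RG6146 and 4, 10 and 9 in the combination, a ratio of 9.04 with a counting interval of 2.73 to 47. It was not called (adjusted p = 0.87), and its combination mean was 8.33% of the mean under TNF alone, where it had 189, 54 and 39 counts. Icam1, the ligand of LFA-1, had 0, 0 and 2 counts under RG6146 and 3, 13 and 2 in the combination, a ratio of 10.6 with an interval of 2.54 to 94.3 (adjusted p = 0.539). Of the 18 counts of Icam1 in the combination, 13 were in replicate 2, the library with leukocyte transcripts, and the fitted log2 fold change of 3.13 was 2.02 without it (adjusted p = 1). Of the list of matrix proteases and their inhibitors, 0 of 13 tested genes were called and the median was 0.33 (0.22 without that library), while TNF alone raised 2. Adamts4, an aggrecanase named after its values were seen, had a log2 fold change of 1.22 ± 0.25 (adjusted p = 0.0709), against 2.23 under TNF alone.

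Of 15 tested survival genes, 2 rose in the presence of RG6146, Gadd45b and Ier3 (13.3%, against 0.279% of all tested genes), and the median was 0.326. TNF alone raised 5 of the 15. Gadd45b, which encodes a stress protein that restrains JNK signalling, stood at 15.2, 14.8 and 15.1 CPM under RG6146 and at 39.2, 37.5 and 42.1 CPM in the combination. It rose by 1.40 ± 0.16 (adjusted p = 0.000425). Ier3, an immediate early gene with a survival role, stood at 275, 239 and 303 CPM and at 842, 721 and 658 CPM. It rose by 1.44 ± 0.13 (adjusted p = 4.8e-05). The combination means of Gadd45b and Ier3 were 195% and 122% of the TNF means. Under RG6146 alone, without TNF, their means were already 283% and 118% of the DMSO means. TNF alone raised them by 1.95 and 1.39. The interaction of TNF with RG6146 was -0.55 for Gadd45b (unadjusted p = 0.0311 in edgeR's test) and 0.05 for Ier3, and neither was called for it.

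The ubiquitin ligases of the TNF receptor complex did not pass the test. Birc2, which encodes cIAP1, stood at 10.6, 13.0 and 11.2 CPM under RG6146 and at 14.9, 19.1 and 18.2 CPM in the combination. The groups did not overlap, but the log2 fold change of 0.58 ± 0.19 was not called (adjusted p = 0.578), while TNF alone raised Birc2 by 1.68 (adjusted p = 0.000175). Birc3, which encodes cIAP2, stood at 2.19, 2.41 and 1.69 CPM and at 5.68, 6.29 and 6.12 CPM. Its log2 fold change of 1.51 ± 0.39 was not called (adjusted p = 0.27), against 2.15 under TNF alone (adjusted p = 0.00331). Traf1, an adaptor of the complex, had 0.48 ± 0.13 (adjusted p = 0.372) against 1.18 under TNF alone. Cflar, which encodes the caspase 8 inhibitor c-FLIP, had 0.27 ± 0.14 and was not called for TNF alone either (adjusted p = 0.0538). Of the 16 tested genes of the TNF receptor complex, 0 were called and the median was 0.067, while TNF alone raised 3.

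Among 19 tested death receptor and apoptosis genes, 0 were called, beside 0.279% of all tested genes called higher, and the median was 0.116 (0.028 without replicate 2 of the combination). Fas, the death receptor of the FAS ligand, stood at 0.644, 0.844 and 0.78 CPM under RG6146 and at 0.812, 2.1 and 3.44 CPM in the combination. The groups overlapped, and its log2 fold change of 1.40 ± 0.55 was not called (adjusted p = 0.855). Under TNF alone Fas stood at 31.5, 15.9 and 15.3 CPM, a rise of 3.80 (adjusted p = 0.000189), so that the combination mean was 10.1% of the TNF mean. The fold changes of Ripk1 and Casp8, the kinase and the caspase of the death complex, were 0.07 ± 0.17 and -0.09 ± 0.16. That of Bcl2l1, which encodes the survival protein BCL-XL, was -0.03 ± 0.19, and in none of these 3 genes were the groups apart.

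Immediate early genes gave the highest number of calls of any list, 6 of 31 tested, beside 0.279% of all tested genes called higher. The list is also long, and chemokines had a larger share, 4 of 7. The median of the immediate early genes was 0.66, and TNF alone raised 11 of them. Zfp36, whose product tristetraprolin speeds the decay of cytokine mRNA, rose from 2.06, 2.29 and 2.73 CPM to 12.6, 11.4 and 15.9 CPM. The rise was 2.48 ± 0.31 (adjusted p = 0.00129), and its combination mean was 123% of the TNF mean. Junb, a subunit of AP-1, rose from 34.3, 31.6 and 34.7 CPM to 126, 151 and 155 CPM, by 2.1 ± 0.18 (adjusted p = 2.52e-05). Its neighbour on the opposite strand, Prdx2, shares exon bases with it, and reads of such pairs cannot be told apart without the strand setting; 13 of the 39 called genes overlap an exon on the opposite strand.

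Jund, another AP-1 subunit, stood at 25.8, 21.2 and 26.8 CPM under RG6146 and at 72.1, 73.1 and 54.5 CPM in the combination. It rose by 1.44 ± 0.20 (adjusted p = 0.0037), and TNF alone gave 0.56, which was not called (adjusted p = 0.301). Its combination mean was 457% of the TNF mean, the highest share among the 37 genes, and its mean under RG6146 alone was 251% of the DMSO mean. Ier5 rose by 0.99 ± 0.14 (adjusted p = 0.0033), from 600, 655 and 779 CPM to 1409, 1246 and 1389 CPM. Dusp1, a phosphatase of MAP kinases, rose by 1.29 ± 0.23 (adjusted p = 0.0319, and 0.183 without replicate 2 of the combination). Ier3 is the remaining member that rose.

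Some immediate early genes with large fold changes were not called; the 3 given here were named after their values were seen. Fos stood at 1.03, 0.724 and 0.91 CPM under RG6146 and at 3.25, 9.57 and 2.49 CPM in the combination, with replicate 2 the highest. Its log2 fold change was 2.53 ± 0.56 (adjusted p = 0.11) and was 1.69 without that library. Egr1 had 0.95 ± 0.20 (adjusted p = 0.0764) and Atf3 had 2.28 ± 0.49 (adjusted p = 0.0956). Myc, a gene whose loss is a common mark of BET inhibition, had 0.66 ± 0.56, with overlapping groups of 7.73, 7.12 and 2.47 CPM and 6.76, 10.1 and 10.7 CPM. Of the 24 tested genes of MYC and ribosome biogenesis, 0 were called and the median was 0.0608.

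Irf1 was the only call among the interferon-stimulated, antigen presentation and checkpoint lists. The gene, a transcription factor that NF-kB and interferon both induce, rose from 168, 197 and 259 CPM to 510, 669 and 718 CPM. It rose by 1.61 ± 0.21 (adjusted p = 0.00214), and its combination mean was 70.8% of the TNF mean. It was the 1 call among 31 tested interferon-stimulated genes, whose median was 0.184 with 27 positive fold changes, and 0.0463 with 18 positive without replicate 2 of the combination. Of 18 antigen presentation genes 0 were called, with a median of -0.0079 (-0.0579 without that library), and of 7 checkpoint and costimulatory ligands 0 were called, with a median of 0.219 (0.102 without it). Cd274, which encodes PD-L1, was below 1.2 CPM in all 6 libraries and had 0.81 ± 0.58.

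The BMP-responsive Id genes Id1 and Id2 fell under TNF alone, by 1.70 for Id1 (adjusted p = 0.0113) and 1.93 for Id2 (adjusted p = 0.027). These genes encode inhibitors of basic helix-loop-helix transcription factors. In the presence of RG6146 the fold changes of Id1, Id2 and Id3 were -0.01 ± 0.29, -0.01 ± 0.36 and -0.08 ± 0.34. Id2 stood at 22.3, 24.2 and 26.4 CPM under RG6146 and at 13.4, 44.4 and 14 CPM in the combination, so that the library with leukocyte transcripts lay above all RG6146 libraries and the other combination libraries below them. Without it the fold change was -0.83 for Id2 (adjusted p = 0.673) and -0.43 for Id1, neither of which was called. Of 11 tested genes of BMP signalling and Id genes, 0 were called.

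Cdkn1a, which encodes the cell cycle inhibitor p21, was the 1 call among 17 tested p53 targets, whose median was 0.161. It rose from 28.4, 29.7 and 31.1 CPM to 69.8, 76.9 and 55.5 CPM, by 1.19 ± 0.17 (adjusted p = 0.00508). Ptges, which encodes a prostaglandin E synthase, rose by 0.78 ± 0.14 (adjusted p = 0.0296, and 0.0937 without replicate 2 of the combination), 1 of 7 tested prostaglandin and innate effector genes with a median of 0.56. Of 6 markers that BET inhibitors induce, 0 were called and the median was -0.0609. Hexim1, the best known of these, had 0.16 ± 0.18.

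**Figure D3:**
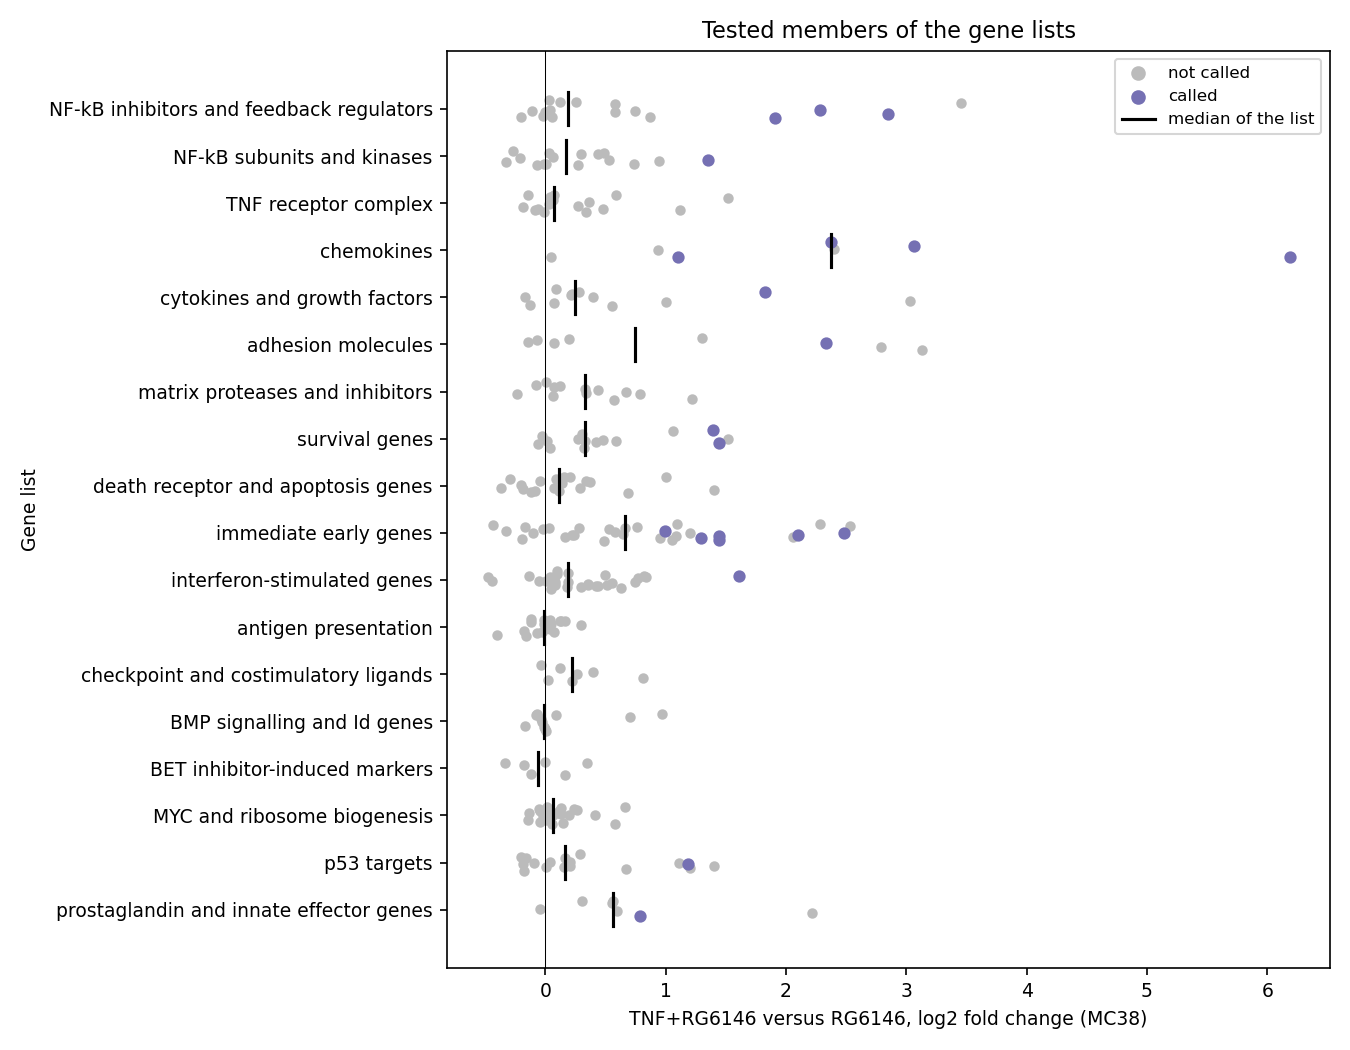
Log2 fold changes of the combination against RG6146 in MC38 for the tested members of 18 gene lists, with called members in purple, the others in grey and a bar at each list's median. The chemokine median is 2.37, and called members, all of them to the right of 0, are spread over 10 of the lists.

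Other genes that rose belong to no list. Slfn2, a Schlafen family gene of lymphocyte quiescence, rose from 6.7, 6.03 and 4.55 CPM to 34.8, 38.3 and 36.6 CPM, by 2.66 ± 0.26 (adjusted p = 9.04e-05). Stx11, a syntaxin used in the release of cytotoxic granules, rose from 5.03, 5.79 and 5.85 CPM to 18.0, 23.3 and 23.7 CPM, by 1.96 ± 0.21 (adjusted p = 0.00025). Both are best known from leukocytes, and both rises held without replicate 2 of the combination, at 2.63 and 1.90. Rgs16, which shortens G protein signals, rose by 1.85 ± 0.35 (adjusted p = 0.0446, and 0.0918 without that library). Ankrd33b rose by 1.60 ± 0.16 (adjusted p = 0.000122).

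Of the smaller changes, Dusp16, a phosphatase of JNK, rose by 0.96 ± 0.14 (adjusted p = 0.00457), and Arhgef3 rose by 0.95 ± 0.13 (adjusted p = 0.00399). Hivep1 (1.41), Rfx5 (0.83), Dlc1 (0.83), Ifrd1 (0.70) and Rnf19b (0.70) were called with adjusted p between 0.0208 and 0.0468. Without replicate 2 of the combination none of these 5 was called, with adjusted p between 0.115 and 0.145. Hivep1 encodes a zinc finger protein that binds NF-kB sites, Rfx5 a factor for MHC class II promoters, Dlc1 a GTPase-activating protein and Rnf19b a ubiquitin ligase.

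The 2 genes that fell are neighbours on the minus strand of chromosome 14. Pdlim2 (chr14:70164218-70177681), whose product promotes the degradation of nuclear p65, stood at 310, 346 and 353 CPM under RG6146 and at 211, 171 and 227 CPM in the combination. It fell by 0.73 on the log2 scale, with an SE of 0.13 (adjusted p = 0.0208, and 0.148 without replicate 2 of the combination). 9930012K11Rik (chr14:70154405-70159502), which lies downstream of it, stood at 19.1, 18.1 and 26 CPM and at 10.8, 8.65 and 8.23 CPM. It fell by 1.18, with an SE of 0.18 (adjusted p = 0.00943, and 0.0824 without that library). Under TNF alone their fold changes were -0.54 (adjusted p = 0.0556) and -0.96 (adjusted p = 0.0167).

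Among the genes that rose are the 7SK RNA and 3 relatives of it. 7SK is a small RNA, made by RNA polymerase III, that holds P-TEFb inactive together with HEXIM1, and the library kit primes on poly-A tails. Rn7sk on chromosome 9 rose from 2.45, 2.89 and 2.21 CPM to 16.9, 10.9 and 11.3 CPM, by 2.37 ± 0.39 (adjusted p = 0.0138). The annotated copies Gm23624, Gm24447 and Gm26315, which are 76.1%, 82.6% and 84% identical to it, rose by 3.16, 2.21 and 2.55. Without replicate 2 of the combination Gm24447 and Gm26315 were not called (adjusted p = 0.0824 and 0.148). Whether reads were shared between these copies was not tested, and each value is uncertain to that extent. Under TNF alone Rn7sk stood at 2.9, 8.55 and 9.54 CPM, with replicate 1 near the DMSO values of 2.16, 0.986 and 1.21 CPM.

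Spib and Gm16685 rose from a few counts. Spib, an ETS factor of B cells and plasmacytoid dendritic cells, rose by 3.52 ± 0.54 (adjusted p = 0.00785) from 0.258, 0.121 and 0.13 CPM to 2.43, 1.31 and 2.68 CPM. Gm16685, an RNA antisense to Il7, rose by 3.82 ± 0.57 (adjusted p = 0.00594) from 0.129, 0.241 and 0.13 CPM to 3.79, 1.84 and 2.11 CPM. In both, replicate 2 had the lowest value of the combination libraries, and the calls were also made without it (adjusted p = 0.00689 and 0.00937).

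**Figure D4:**
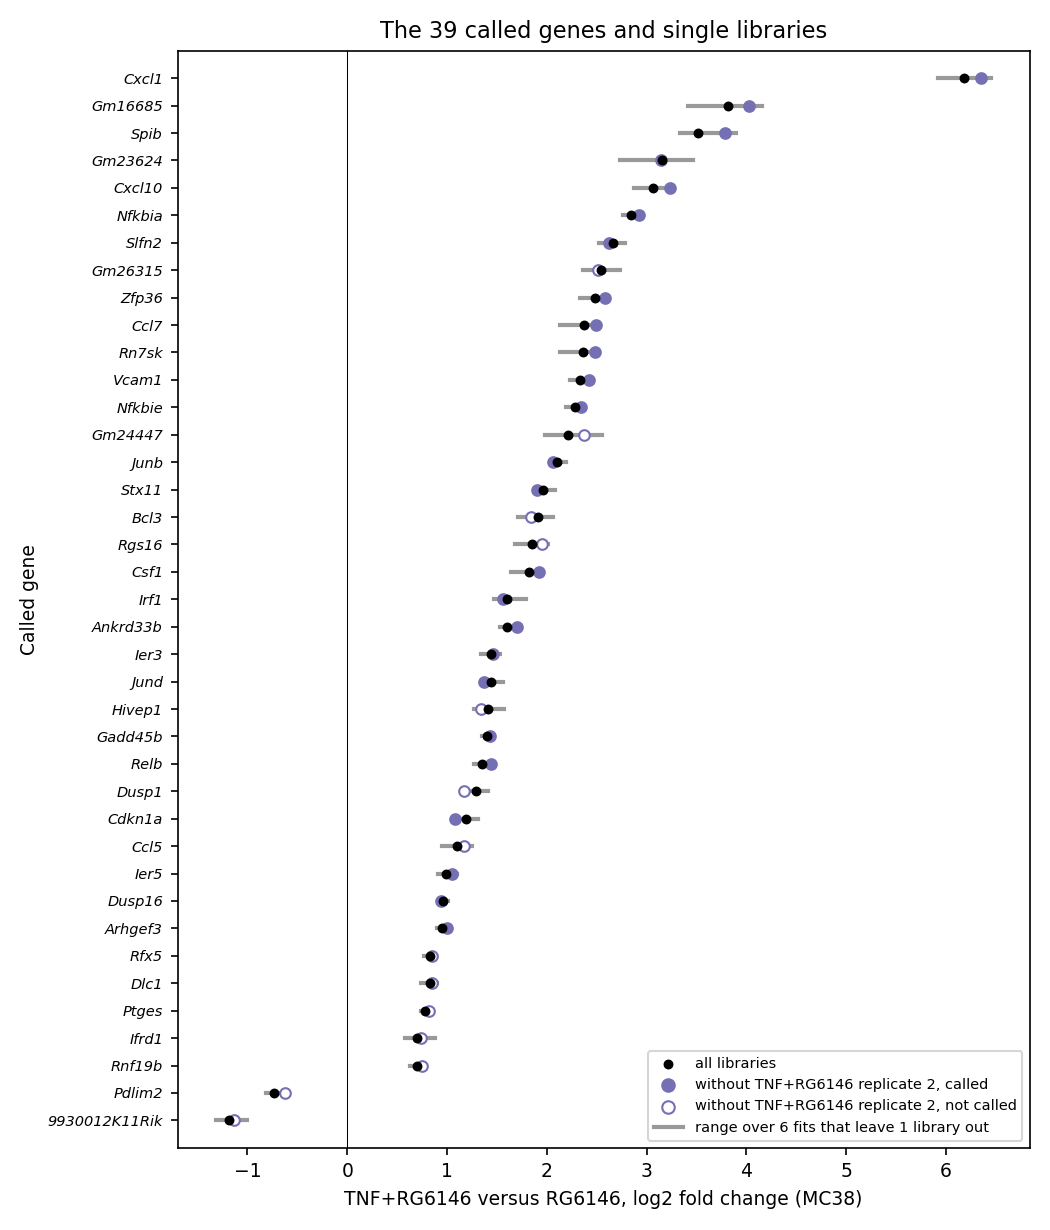
Log2 fold changes of the 39 called genes with all libraries (black), without replicate 2 of the combination (purple, filled where called), and their range over the 6 fits that each leave out 1 of the 6 libraries (grey bars). No bar reaches 0, and 25 of the purple points are filled.

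Each single library mattered for the number of calls. Of the 39 calls, 21, 18 and 21 were made again without replicates 1, 2 and 3 of RG6146, and 26, 25 and 26 without replicates 1, 2 and 3 of the combination. All 39 genes kept their sign in these 6 fits, 16 were called in all of them, and 8 in none. The 16 are Ankrd33b, Ccl7, Cxcl1, Cxcl10, Gadd45b, Ier3, Ier5, Irf1, Junb, Nfkbia, Nfkbie, Relb, Slfn2, Stx11, Vcam1 and Zfp36. The 8 are Ccl5, Dlc1, Gm24447, Gm26315, Ptges, Rfx5, Rgs16 and Rnf19b.

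How much of the TNF response this is can be read against TNF alone. TNF against DMSO gave 145 called genes in MC38 (1.09% of those tested), of which 136 were higher (1.02%) and 9 lower (0.0678%). Of the 37 genes that rose in the presence of RG6146, 34 were among these 136, which is 91.9% of the shorter list and 25% of the longer. The other 3 are Jund, Gm23624 and Gm26315. The 136 genes were chosen on the MC38 TNF libraries, so their median of 1.41 there is raised by the choice; in the presence of RG6146, in libraries that the choice did not use, their median was 0.685 and 125 of 136 fold changes were positive. The 9 genes that fell under TNF alone had a median of -1.23 there, which the choice likewise moves away from 0. In the presence of RG6146 their median was -0.397, and 1 was called.

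A set chosen on neither MC38 contrast gives a comparison without that choice, though not without the filter on low counts. The filter used all MC38 groups, so a gene nearly silent without TNF could be tested because of the libraries given TNF. Tnfaip3 is such a member, with 2, 2 and 2 counts in DMSO and 111, 53 and 27 under TNF alone. How many members entered in this way was not counted. The same limit holds for the medians of the gene lists, for the genes chosen on the MC38 TNF libraries and for the E0771 calls below. The 79 genes that TNF alone raised by a log2 of at least 1 in E0771 and that were tested in MC38 had a median of 1.38 for TNF alone in MC38 and 0.76 in the presence of RG6146. In the latter, 75 of the 79 (94.9%) had a positive fold change, against 49.7% of all tested genes. Of the 79, 23 were called (29.1%), against 0.279% of all tested genes, while TNF alone raised 47. The difference between the responses, the interaction of TNF with RG6146, was negative in 63 of the 79 (79.7%), against 54.4% of all genes. It had an unadjusted p under 0.05 in 21 of the 79 (26.6%), against 5.82% of all genes.

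No gene passed the adjusted threshold for that interaction in edgeR's test: 0 of 13272 were called (0%). An unadjusted p under 0.05 was seen for 772 genes. Leaving out 1 of the 12 libraries gave between 472 such genes (without replicate 2 of RG6146) and 1041 (without replicate 3 of DMSO). limma-voom called 0 and DESeq2 called 3. DESeq2's 3 were Enpp2, Rhob and the predicted gene Gm27325, named after their values were seen. Enpp2, which encodes the lysophospholipid enzyme autotaxin, stood at 39.4, 27.0 and 36.5 CPM in DMSO, 69.0, 64.8 and 67.5 CPM under TNF, 40.3, 30.2 and 36.0 CPM under RG6146 and 28.4, 22.3 and 30.8 CPM in the combination. Its interaction was -1.36 in edgeR (unadjusted p = 6.42e-05, adjusted p = 0.542) and -1.37 in DESeq2 (adjusted p = 0.00187). For Rhob, a small GTPase, the interaction was -1.37 in both (adjusted p = 0.818 in edgeR and 0.0351 in DESeq2).

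Below the adjusted threshold, the interaction was -2.42 for Ccl2 (unadjusted p = 0.00657), -2.40 for Fas (unadjusted p = 0.00552), -1.09 for Birc2 (unadjusted p = 0.000896) and -0.61 for Nfkbia (unadjusted p = 0.00241). Il15ra, the alpha chain of the interleukin 15 receptor, named after its values were seen, stood at 83.6, 21.8 and 22.1 CPM under TNF and at 2.03, 5.5 and 3.06 CPM in the combination, with an interaction of -3.32 (unadjusted p = 0.00197). The interaction was 1.69 for Id1 (unadjusted p = 0.00128) and 0.88 for Jund (unadjusted p = 0.0103). None of these 7 genes was called for it.

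**Figure D5:**
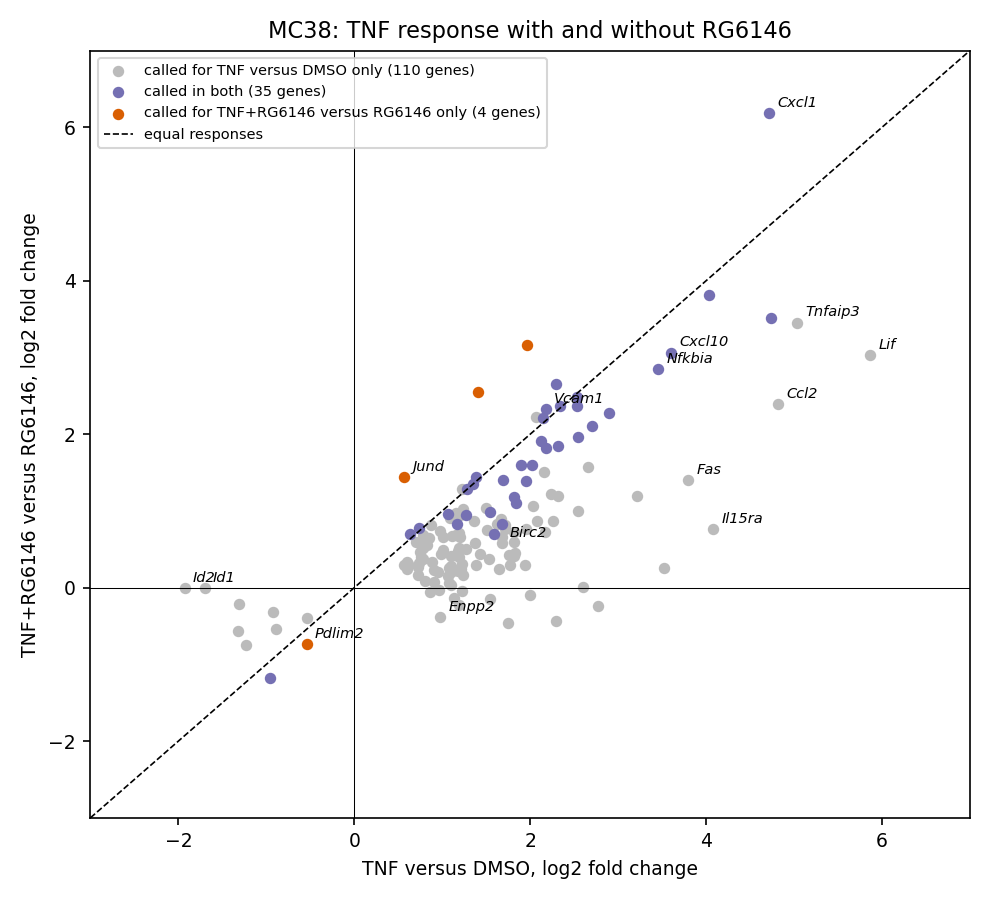
Log2 fold change of TNF against DMSO (horizontal axis) and of the combination against RG6146 (vertical axis) for the genes called in either, with a dashed line where both are equal. Cxcl1 and Jund lie above the line, at 6.19 against 4.71 and 1.44 against 0.56, and Ccl2, Fas and Il15ra lie far below it.

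Among the 37 genes that rose, the combination mean was between 20.1% and 457% of the mean under TNF alone, with a median of 74.8%. It was below the TNF mean in 23 genes and at or above it in 14. The level under RG6146 alone was below that in DMSO in 20 of the 37. A gene can thus have the same fold change at a lower level: Vcam1 had 2.33 in the presence of RG6146 and 2.18 without it, while its combination mean was 62.6% of the TNF mean. Ifrd1 shows the other case, with fold changes of 0.70 and 0.64 and a combination mean of 198% of the TNF mean. Replicate 1 of TNF alone was the highest of its group for Ccl2, Lif, Fas and Tnfaip3, and without it the combination means were 21.4%, 19.1%, 13.6% and 28.7% of the TNF means, values added after the data were seen.

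The same contrast in E0771 called 92 genes of 12541 (0.734%), of which 85 were higher (0.678%) and 7 lower (0.0558%). All 37 genes that rose in MC38 were tested there, and 28 of them rose in E0771 too, which is 75.7% of the MC38 list and 37.8% of the 74 E0771 genes tested in MC38. In MC38, 73 of these 74 had a positive fold change (98.6%), their median was 0.921 against 1.27 in E0771, where the choice of genes raises it, and 64 (86.5%) had all combination libraries above all RG6146 libraries, against 6.31% of all tested genes. The 9 not called in E0771 are Bcl3, Hivep1, Dusp1, Dusp16, Rnf19b, Rn7sk, Gm23624, Gm24447 and Gm26315. Rn7sk had 0.38 there.

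The difference between the lines was called for 5 of 14058 genes (0.0356%), all with a lower fold change in MC38 than in E0771, and without replicate 2 of the MC38 combination for 5 of 14273 (0.035%). Nfkbia rose by 2.85 in MC38 and by 3.90 in E0771, where it went from 546, 553 and 564 CPM to 7984, 8170 and 8633 CPM. Tnfaip2 had 0.60 ± 0.12 in MC38 (adjusted p = 0.0707) and 2.09 ± 0.09 in E0771. The growth factor Ereg had 0.22 ± 0.16 in MC38, with overlapping groups of 71.0, 56.8 and 58.5 CPM and 81.7, 62.8 and 72.0 CPM, and it rose by 2.39 in E0771. Sdc4, a cell surface proteoglycan, had 0.42 ± 0.13 in MC38 (adjusted p = 0.592) and rose by 1.60 in E0771. Matn4, a matrix protein, had too few counts to be tested in MC38 alone, with 6, 5 and 8 counts under RG6146 and 6, 3 and 4 in the combination. In E0771 it rose from 1, 1 and 0 counts to 27, 34 and 27, a ratio of 43.7 with a counting interval of 11.7 to 366.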

How the data were processed

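The deposited table holds raw read counts per gene for 24 libraries; they are whole numbers with a different total in each library, and 0 columns went unused. Per the labels' protocols, libraries were made with a QuantSeq 3′ kit. Per the submitters' processing notes the tools were bcl2fastq 2.17.1.14, cutadapt 1.14, HISAT2 2.1.0, featureCounts of Subread 1.5.2 and limma, with build mm10. The annotation release, strand setting and treatment of reads with several positions could not be read from the labels or the table (not given in the sources used here). Symbols were found for 42462 of 43629 identifiers, and 42548 were found in GENCODE vM21, which gave positions and gene types.

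The 12 MC38 libraries were fitted in 4 groups of 3 with no covariate. Genes were kept by filterByExpr, libraries scaled by TMM, and contrasts tested two-sided with glmQLFit and glmQLFTest of edgeR 4.0.16 in R 4.3.3, with Benjamini-Hochberg adjustment over all tested genes and a threshold of 0.05. Fold changes use edgeR's prior count of 0.125, and SE is the size of the fold change over the square root of F. The E0771 contrast was fitted on its own 12 libraries, and the difference between lines on all 24. limma 3.58.1 (voom) and DESeq2 1.42.0 were alternatives, and the edgeR script was tested on simulated data. Marker sums are shares of raw counts. Ratios for genes with 1 to 3 counts in a group have exact 95% intervals, which, like the floor of 3 counts, cover counting error only.

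Genes were named by rule: the 12 largest changes in each direction among called genes with non-overlapping groups, 20 or more counts on average and a gene symbol that is no clone name; the 6 largest in the interaction and in the line difference; 3 called members of each list per direction; and genes named whatever their result. Other called genes are named to complete the 39 and were chosen after their values were seen, as were all members of the interaction called by DESeq2. The comparison, the 18 gene lists and the 9 marker lists were chosen with earlier results of these data known.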

Additional observations from a re-analysis of the deposited data

Results flagged for a closer look

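The rise under TNF in the presence of RG6146 differed between the lines for 5 genes by edgeR's quasi-likelihood test of the difference itself, with 3 libraries in each of the 4 groups. The MC38 minus E0771 difference in log2 fold change was -5.61 ± 0.83 for Matn4 (adjusted p = 0.00212), which had 3 to 8 counts in each of the 6 MC38 libraries and 1, 1 and 0 counts in the E0771 RG6146 libraries, so that the size of its difference rests on 2 counts. It was -2.19 ± 0.21 for Ereg (adjusted p = 4.38e-06). For Tnfaip2 it was -1.51 ± 0.15 (adjusted p = 4.38e-06), and for Sdc4 it was -1.19 ± 0.17 (adjusted p = 0.00162). For Nfkbia it was -1.06 ± 0.14 (adjusted p = 0.000384). All 5 differences were also called without replicate 2 of the MC38 combination, with adjusted p between 4.21e-05 and 0.00959.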

How the results depend on the processing

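The 39 calls became 355 with no filter, 67 in DESeq2, 62 with only the 6 libraries compared, and 18 to 27 when 1 library was left out. All 39 were among the calls with no filter, in DESeq2 and with the 6 libraries. For this comparison 72 genes were followed through every setting. In 33 pairs of a gene and a setting a call was made that the main fit lacked, and in 116 pairs a call was lost. A gene given above as not called may thus be called in another setting. Of the calls made only without the filter, 202 were of genes not tested otherwise, and 128 of these had over 90% of their counts in replicate 2 of the combination. The interaction calls went from 0 to 211 with no filter and 3 in DESeq2. TNF against DMSO went from 145 to 574 with no filter, 326 in DESeq2, 69 with its 6 libraries only and 95 to 160 with 1 library left out. The E0771 contrast went from 92 to 154 with no filter, 534 with its 6 libraries only (65.9% higher, against 92.4%) and 57 to 69 with 1 left out. It had 156 calls without the libraries that stand apart. These are replicate 2 of MC38 DMSO, 1 of MC38 TNF, 2 of the MC38 combination and 2 of E0771 TNF, and only the last was in the E0771 fit. The line difference went from 5 to 208 with no filter, 12 in DESeq2, 11 without the libraries that stand apart and 5 to 21 with 1 left out. The fit of only 6 libraries gives no interaction or line difference. The cause of these shifts was not tested, and the settings that drop libraries also have fewer samples.

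No pairing by replicate number was seen between the RG6146 and combination libraries. The deviations of same-numbered libraries correlated at -0.0922, -0.0394 and -0.238, and those of differently numbered libraries between -0.0804 and 0.171. Whether same-numbered libraries share a culture is not stated in the labels. With a replicate block 32 genes were called, 30 of them among the 39, the interaction kept 0 calls and the line difference had 10.

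Some uncalled genes near 0 changed sign when 1 library was left out: Ripk1 ran from -0.00986 to 0.164, Casp8 from -0.16 to 0.028, Id1 from -0.429 to 0.215, Id2 from -0.829 to 0.285, Id3 from -0.243 to 0.157 and Bcl2l1 from -0.145 to 0.12. With only the 6 libraries compared, Id1 gave 0.0136 and Id2 0.023. Id2 gave 0.00534 with library totals alone, and without the libraries that stand apart Ripk1 gave -0.00816 and Casp8 0.027. Depth limits Tnfaip3, Lif and Icam1, with 2 or 3 counts under RG6146.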
